A study of Homo sapiens with 11 samples.

Results

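The estrogen receptor (ER) sites described here lie close together in the genome. Peaks of the estradiol ER list on the same chromosome were joined when the next peak began at most 12500 bp after the previous one ended, and groups of 3 or more were kept as clusters. Of 3560 estradiol ER sites, 666 (18.7%) were chosen by this rule and formed 180 clusters. A further 768 sites (21.6%) lay in 384 groups of 2, called pairs here, and 2126 (59.7%) had no neighbour within the distance and are called single sites. Because the members were selected on the positions of the estradiol ER peaks, how closely they lie and how strong they are in that list are given as descriptions, while the combination ER list, the glucocorticoid receptor (GR) lists and the histone lists come from libraries the rule did not use.

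ER is a transcription factor that binds DNA when estradiol occupies it, mostly at enhancers far from promoters, where it draws in coactivators that acetylate histones. GR is a related receptor that answers to glucocorticoids such as dexamethasone and can bind near ER or through the same open chromatin. Acetylation of histone H3 at lysine 27 (H3K27ac) marks active enhancers and promoters. Dense groups of such sites have been described at strongly hormone-responsive genes. In the uterus estrogens drive growth of the endometrium, and glucocorticoids are known to restrain several estrogen effects there.

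The study used chromatin immunoprecipitation with sequencing in Ishikawa cells, an established human endometrial adenocarcinoma line kept in hormone-depleted medium before treatment. ER was mapped after 1 h of 10 nM estradiol or of 10 nM estradiol with 100 nM dexamethasone (the combination), and GR after 1 h of 100 nM dexamethasone or of the combination. H3K27ac was mapped after 8 h of vehicle (DMSO), estradiol, dexamethasone or the combination at the same doses, going by the treatment label of each sample, although the protocol text names 1 h. Of 11 samples in the series, 8 peak lists were used, and the vehicle ER and GR samples and the control were not analysed here as peak lists. There was 1 library in each group, so no spread between replicates can be given, every comparison is between those libraries, and the 95% intervals below cover counting error over peaks only. Sites of 1 cluster share a locus and are not replicates, which makes these intervals too narrow.

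Usable tags numbered between 5206574 and 8508828 in the receptor libraries and between 9034395 and 18508574 in the H3K27ac libraries, with the vehicle H3K27ac library the deepest and the dexamethasone one the shallowest. Duplicate tags made up 33% of the dexamethasone H3K27ac library, against 18% to 22% of the other H3K27ac libraries. The combination ER library was shallower than the estradiol one (7625049 against 8508828 usable tags), and MACS2, the peak caller, used a fragment length of 121 bp for it against 90 bp. The lists held 3560 ER sites with estradiol and 2382 with the combination, 1815 GR sites with dexamethasone alone and 1628 with both hormones, and 15192 to 23888 H3K27ac peaks. What part these differences had in the results below was not tested.

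Most clusters were small. There were 106 clusters of 3 sites, 46 of 4, 18 of 5, 3 of 6, 3 of 7, 1 of 8 and 3 of 9. The span from the first to the last base of a cluster ran from 948 to 48297 bp, with a median of 9610 bp and quartiles of 4874.5 and 13828 bp, and all spans together covered 1.93 Mb. The median span was 7631.5 bp for 3 sites, 11933 bp for 4 and 12257 bp for 5, and spans of equal site number varied widely. In 13 clusters all sites fell within less than 2 kb, and 19 clusters spanned more than 20 kb. The 486 gaps between neighbouring sites had a median of 2392.5 bp, and 111 of them were at most 500 bp. With ER peaks within 500 bp of each other counted as 1 site, there were 129 clusters.

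**Figure D1:**
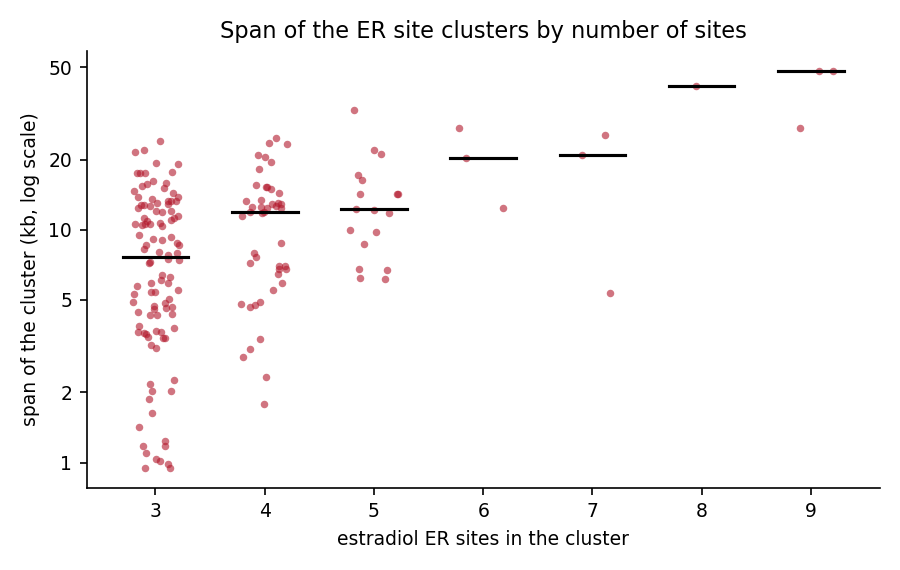
Span of each of the 180 clusters (kb, log scale) against the number of estradiol ER sites it holds, with 1 point per cluster and a bar at the median of each site number. Clusters of 3 reach from under 1 kb to 24080 bp, and both spans above 48 kb belong to clusters of 9 sites.

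The joining distance fell within a continuous range of gaps. The widest gaps inside clusters were 12403 bp on chromosome 12, 12375 bp on chromosome 16 and 12332 bp on chromosome 17. The narrowest gaps just outside it were 12522 bp on chromosome 3, which kept a single site apart from a cluster of 4, 12531 bp on chromosome 12 and 12537 bp on chromosome 3. Within 1 kb of the distance there were 17 gaps inside and 18 outside. Among the largest clusters, the one of 9 sites on chromosome 17 had a pair 13339 bp before it, and the one of 7 sites on chromosome 10 had a single site 13317 bp before it.

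Clusters were spread unevenly over the chromosomes. Chromosome 17 had the highest clustered share, 65 of 188 sites (34.6%, 27.8 to 41.8) in 17 clusters, followed by chromosome 20 (27.4%), chromosome 22 (26.1%) and chromosome 12 (24.9%). The lowest shares were 8.97% on chromosome 7, 6.67% on chromosome 15 and 0 of 37 sites on chromosome X, which allows up to 9.49%. A higher density of ER sites on a chromosome gives more groups by the rule itself, so these shares are a description. Copy number in this cell line was not analysed here.

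In the estradiol list itself, clustered sites were about as enriched as single ones. The median fold enrichment, the authors' ratio of summit coverage to local control background, was 14.0 at clustered sites, 14.6 in pairs and 14.0 at single sites. The median pileup, the fragment coverage at the summit, was 27.6 at clustered and 22.5 at single sites, and pileup divided by fold, a guide to the local control background, was 1.91 and 1.40. Clustered peaks were wider, with a median of 186 against 147.5 bp. When the whole list was cut by −log10 q into 4 strength classes of 25% each, 201 clustered sites (30.2%) fell in the strongest class, against 470 single sites (22.1%), while the weakest class held 24.0% and 25.5%. Clusters were mixtures of strong and weak sites: the ratio of −log10 q between the strongest and the weakest site of a cluster ranged from 1.02 to 14.5, with a median of 3.33.

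Most clustered ER sites were called when dexamethasone was added, at a share near that of the whole list. With the combination, 433 of 666 clustered sites (65.0%, 61.3 to 68.6) overlapped an ER peak by at least 1 bp, against 61.8% of all estradiol ER sites, 67.3% of sites in pairs and 1250 of 2126 single sites (58.8%, 56.7 to 60.9). The clustered share was 6.22 percentage points (1.98 to 10.3) above that of single sites and below that of pairs. Against all sites outside clusters the difference was 3.96 points, with an interval from −0.14 to 7.91 that includes 0. It was 3.18 points when single sites were weighted to the strength classes of the clustered sites, and 2.49 when weighted by vehicle H3K27ac as well. It was 17.9 points when a combination peak within 1 kb was enough, a measure that also counts the peak of a neighbouring site. By cluster size the shares lay close together: 64.5% of sites in clusters of 3, 66.8% in clusters of 4 and 64.0% in larger ones were called again.

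**Figure D2:**
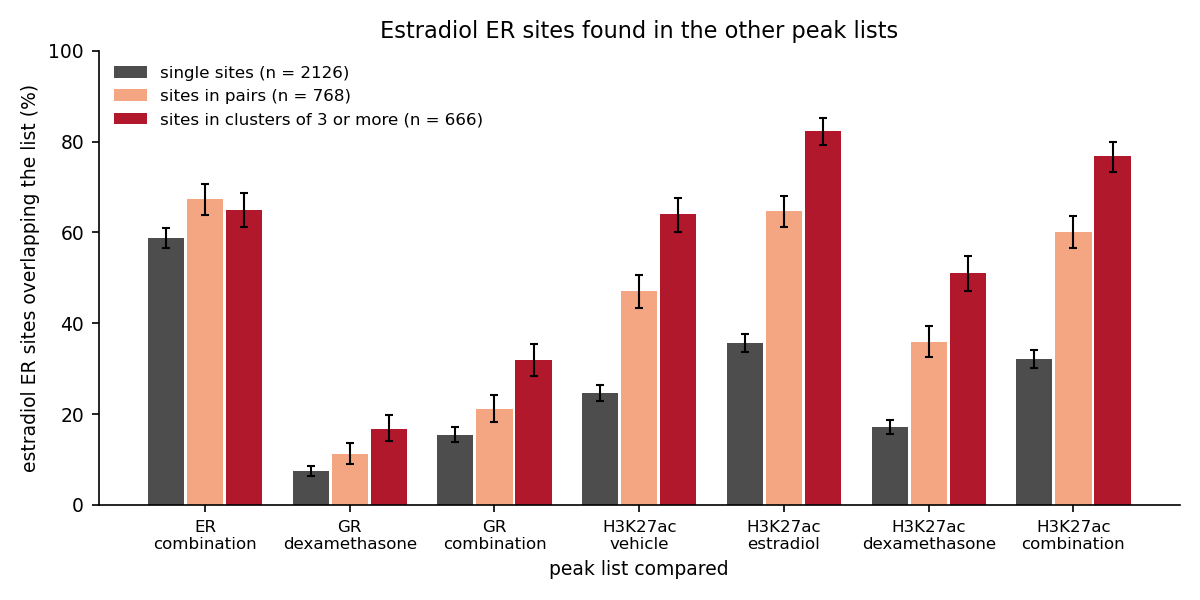
Share of estradiol ER sites (%) that overlap each of 7 other peak lists by at least 1 bp, for single sites, sites in pairs and sites in clusters, with exact 95% intervals over peaks. The bars are close together for the combination ER list and far apart for the 4 H3K27ac lists, where clustered sites stand highest.

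How strong a site was in the estradiol list went with whether it was called again, in clusters and outside them alike. From the weakest to the strongest class the shares called with the combination were 23.8%, 47.2%, 83.1% and 99.5% at clustered sites and 20.1%, 43.2%, 79.0% and 98.1% at single sites. Within a cluster the sites followed the same order. The strongest site of the cluster was called again in 166 of 180 clusters (92.2%), the next strongest in 71.1%, the one after that in 50.0% and sites of rank 4 or lower in 38.9%. The median fold enrichment with estradiol at these ranks was 23.0, 15.0, 12.1 and 11.2.

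Most clusters were called in part. At the share of all estradiol ER sites called (61.8%), many groups of 3 or more would be called in part. The counts per cluster are therefore a description. All sites were called with the combination in 44 clusters (24.4%), some but not all in 131 (72.8%) and none in 5 (2.78%), and 79 clusters had 3 or more called sites. Of the 233 clustered sites that were not called, 218 lay in a cluster with at least 1 called site, and 79 had a combination ER peak within 1 kb. Their median fold enrichment with estradiol was 10.8, against 17.7 at the sites called again. The 433 called sites met 425 distinct combination peaks, since 9 combination peaks each held 2 or more of them. Joined by the same rule, the combination list gave 291 of 2382 sites (12.2%) in 82 clusters, of which 71 (86.6%) met an estradiol cluster, and these touched 72 of the 180 estradiol clusters (40.0%).

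GR was found at clustered ER sites more often than at single ones, with either treatment. With dexamethasone alone, 112 clustered sites (16.8%, 14.1 to 19.9) overlapped a GR peak, against 10.0% of all estradiol ER sites, 11.2% of sites in pairs and 159 single sites (7.48%, 6.40 to 8.68), a difference of 9.34 points (6.43 to 12.5). With the combination, 212 clustered sites (31.8%, 28.3 to 35.5) did so, against 19.7% of all, 21.1% in pairs and 329 single sites (15.5%, 14.0 to 17.1), a difference of 16.4 points (12.6 to 20.3). The dexamethasone difference was 3.96 points when single sites were weighted to the clustered sites by whether they lay in a vehicle H3K27ac peak, and the combination difference was then 13.7 points. With only the stronger 50% of each GR list, the differences were 4.19 and 9.44 points.

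Clustered sites exceeded single sites in every class of GR call. GR was called under the combination but not under dexamethasone alone at 129 clustered sites (19.4%, 16.4 to 22.6), against 12.5% of all estradiol ER sites and 9.88% (8.64 to 11.2) of single sites. The reverse held at 29 clustered sites (4.35%), against 2.78% of all and 1.88% of single sites. Both treatments gave GR at 12.5% of clustered sites, 7.25% of all and 5.60% of single sites, and neither did at 63.8%, 77.5% and 82.6%. By cluster size, the combination GR shares were 28.3% (23.4 to 33.6) in clusters of 3, 33.2% (26.4 to 40.5) in clusters of 4 and 37.2% (29.8 to 45.1) in larger ones, with intervals that overlap, and the dexamethasone GR shares were 16.7%, 18.5% and 15.2%.

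Most estradiol ER sites with combination GR were strong ones, in clusters as in the whole list. Of the 212 clustered sites with it, 124 were in the strongest class, and so were 53.8% of all estradiol ER sites with it. Of the 1628 combination GR peaks themselves, 908 lay off estradiol ER sites and outside the cluster spans. In the strongest class, 61.7% (54.6 to 68.4) of clustered and 33.4% (29.1 to 37.9) of single sites had GR with the combination, and in the weakest class 13.8% and 7.01% did. Sites in pairs stood between them, at 44.3% (37.6 to 51.1) in the strongest and 8.51% in the weakest class. With dexamethasone alone there was no such order: clustered sites had GR in 21.3%, 12.9%, 16.9% and 16.4% from the weakest to the strongest class, and single sites in 9.23%, 6.09%, 7.55% and 7.02%. The strongest site of a cluster had combination GR in 54.4% of clusters, the next strongest in 26.7% and the one after in 23.9%, while dexamethasone GR stood at 17.8%, 13.9% and 18.3%. In the strongest class the combination GR share of clustered sites exceeded that of single sites both within vehicle H3K27ac peaks (65.7%, 57.0 to 73.7, against 42.4%, 33.3 to 51.8) and outside them (53.7%, 41.1 to 66.0, against 30.4%, 25.6 to 35.5).

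**Figure D3:**
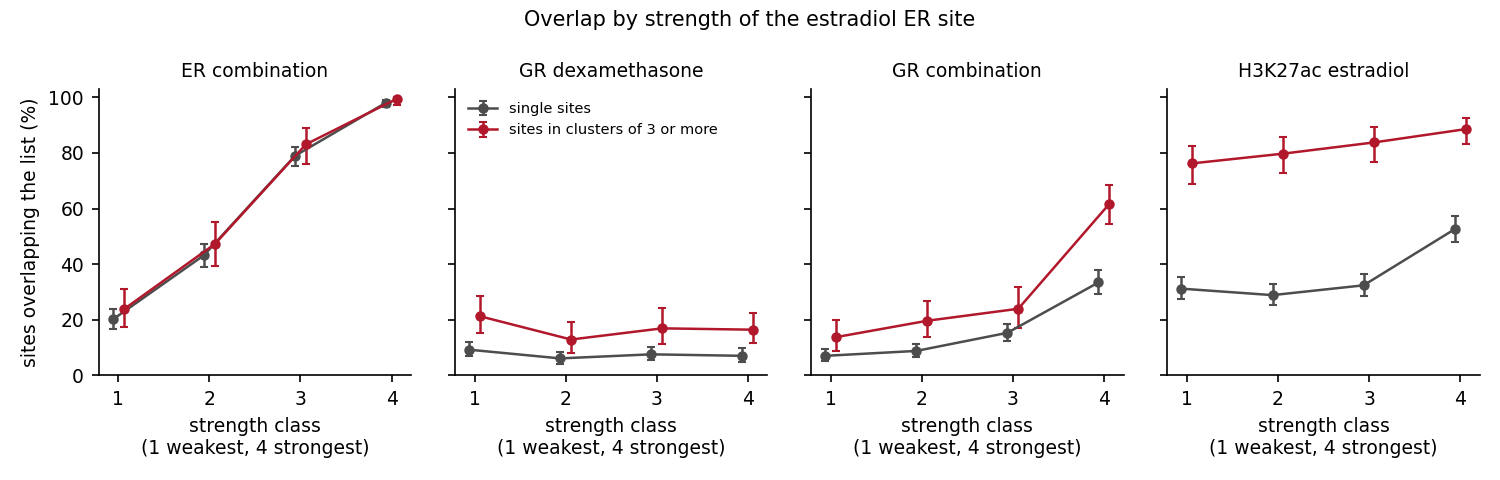
Share of sites (%) overlapping the combination ER, dexamethasone GR, combination GR and estradiol H3K27ac lists in each strength class of the estradiol ER list (25% of sites each by −log10 q, 1 weakest to 4 strongest), for clustered and single sites, with exact 95% intervals. The lines for combination ER nearly coincide, and combination GR at clustered sites reaches 61.7% in the strongest class, against 33.4% at single sites.

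Over whole spans, 118 of the 180 clusters (65.6%) held a combination GR peak and 71 (39.4%) a dexamethasone GR peak. Of all estradiol ER sites, 19.7% overlapped a combination GR peak and 10.0% a dexamethasone GR peak. A group of 3 or more sites has more chances to hold a GR peak than these shares per site. The counts per cluster in this paragraph are therefore a description. In 65 clusters GR was present with both treatments, in 53 with the combination only, in 6 with dexamethasone only and in 56 with neither. At least 3 GR peaks stood in 25 spans with the combination and in 12 with dexamethasone, and the number of GR peaks was higher with the combination in 76 clusters, lower in 17 and equal in 87. Nearly all of these GR peaks lay on the ER sites themselves, 214 of 226 with the combination and 112 of 126 with dexamethasone. The spans took in 13.9% (12.2 to 15.7) of the 1628 combination GR sites and 6.94% (5.82 to 8.21) of the 1815 dexamethasone GR sites. Their median fold enrichment was lower than that of GR peaks away from ER: with the combination it was 11.8 on ER sites in spans, 12.7 on ER sites elsewhere and 14.4 off ER, and with dexamethasone it was 9.97, 10.3 and 13.6. The median −log10 q did not follow this order: it was 24.9, 23.0 and 25.1 with the combination and 20.3, 19.1 and 22.8 with dexamethasone. GR sites themselves formed 48 clusters in each GR list by the same rule, of which 29 (60.4%) with the combination and 17 (35.4%) with dexamethasone met an ER cluster.

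H3K27ac set clustered sites apart from single sites most. In cells given vehicle, 426 clustered sites (64.0%, 60.2 to 67.6) lay in an H3K27ac peak, against 36.8% of all estradiol ER sites, 47.0% of sites in pairs and 24.6% (22.8 to 26.5) of single sites, a difference of 39.4 points (35.2 to 43.3). With estradiol the clustered share was 82.4% (79.3 to 85.2), against 50.6% of all and 35.6% of single sites, a difference of 46.8 points (43.1 to 50.2). With dexamethasone it was 51.1% (47.2 to 54.9), against 27.5% and 17.1%, a difference of 33.9 points (29.8 to 38.0). With the combination it was 76.7% (73.3 to 79.9), against 46.5% and 32.0%, a difference of 44.7 points (40.8 to 48.3). The order of the 4 treatments was the same at clustered sites, single sites and sites in pairs, with dexamethasone lowest and estradiol highest, and sites in pairs stood between the others in each list. Unlike ER and combination GR, estradiol H3K27ac did not follow a site's rank in its cluster: 84.4% of the strongest, 80.6% of the next, 80.6% of the third and 84.9% of the lower-ranked sites lay in a peak. In the same order the shares were 65.0%, 63.9%, 61.1% and 66.7% with vehicle and 48.9%, 56.1%, 47.8% and 51.6% with dexamethasone. With the combination they fell from 81.1% to 75.6% and 71.1%, and were 80.2% at rank 4 or lower, which only clusters of 4 or more hold. Across the strength classes of the list, estradiol H3K27ac was highest in the strongest. From weakest to strongest, the estradiol H3K27ac shares were 76.3%, 79.8%, 83.8% and 88.6% at clustered sites. At single sites they were 31.2%, 28.9%, 32.4% and 52.6%.

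At most clustered sites acetylation was called without hormone as well. Of the 666 sites, 329 (49.4%) lay in H3K27ac peaks of all 4 lists, against 25.4% of all estradiol ER sites and 15.0% of single sites, and 102 (15.3%) lay in none, against 45.2% of all and 60.0% of single sites. Another 86 sites (12.9%) lacked a peak with dexamethasone alone and had one in the other lists, against 8.82% of all and 6.73% of single sites. Peaks with estradiol and with the combination only were found at 75 (11.3%), against 8.03% of all and 5.93% of single sites. A peak with estradiol and none with vehicle was found at 124 clustered sites (18.6%), against 14.7% of all estradiol ER sites and 11.9% of single sites. Among sites without a vehicle peak, these made up 51.7% (45.1 to 58.1) of clustered and 15.8% (14.1 to 17.7) of single sites. In the whole list of 3560 sites, 1310 had a vehicle peak and 524 had an estradiol peak without a vehicle peak. Of the 124, 83 (66.9%, 57.9 to 75.1) had a peak with the combination as well, against 55.1% (48.8 to 61.3) of the 254 such single sites, with intervals that overlap.

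Sites with a vehicle peak were chosen on that list, so any other list can only match it or fall below it. Among them, clustered sites lacked a dexamethasone peak less often than single sites. These shares were not computed over all estradiol ER sites and are a description. Of all estradiol ER sites, 36.8% lay in a vehicle peak and 27.5% in a dexamethasone peak. Of 426 clustered sites with a vehicle peak, 97 (22.8%, 18.9 to 27.1) had none with dexamethasone, against 36.1% (32.0 to 40.4) of 523 such single sites. Of these 97, 87 (89.7%, 81.9 to 94.9) had a peak with the combination, against 77.2% (70.6 to 83.0) of the 189 such single sites, with intervals that overlap. Both sets were chosen for lacking a dexamethasone peak, and the combination list is longer (20873 against 15192 peaks). The choice itself therefore favours a peak with the combination. The dexamethasone list was also the shortest, from the shallowest H3K27ac library with the most duplicates, and its peaks within the spans were more and narrower: 517 peaks with a median width of 747 bp, against 428 of 1285.5 bp with vehicle, 502 of 1521 bp with estradiol and 510 of 1401.5 bp with the combination. Treatment and library depth cannot be told apart here.

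The share of each cluster's span inside H3K27ac peaks gave the same order. Its median over the 180 clusters was 38.2% (29.6 to 51.5) with vehicle, 66.5% (55.3 to 74.6) with estradiol, 30.2% (22.3 to 39.0) with dexamethasone alone and 61.7% (49.3 to 72.2) with both hormones. The whole span was covered in 20, 37, 12 and 35 clusters in the same order, and none of it in 27, 7, 40 and 13. No H3K27ac was called in any list over 7 clusters, and 20 clusters had none with vehicle and some with estradiol. These levels depend on the joining distance, since wider gaps add stretches between sites: the median with estradiol was 100% at 5000 bp and 21.8% at 50000 bp. The treatments had the same order in total peak length over the whole lists. It was 18.0 Mb with vehicle, 24.2 Mb with estradiol, 12.4 Mb with dexamethasone alone and 20.3 Mb with both hormones. What part this had in the coverage of the spans was not tested.

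**Figure D4:**
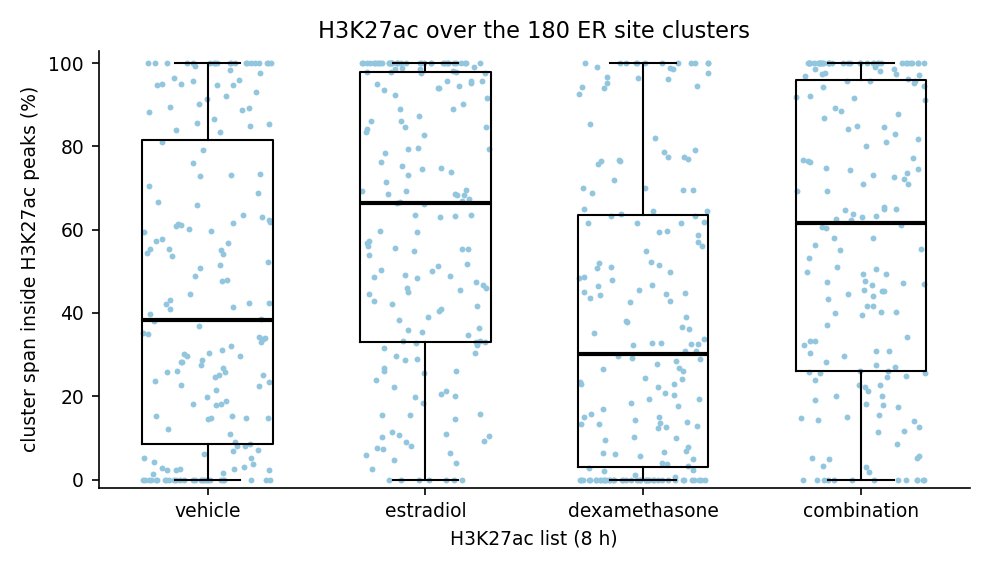
Percent of the span of each of the 180 clusters that lies inside H3K27ac peaks after 8 h of each treatment. Points are clusters, boxes give the median and quartiles and whiskers reach the lowest and highest values, which are 0 and 100 in each list; the medians are 38.2%, 66.5%, 30.2% and 61.7%.

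Followed cluster by cluster, coverage was higher with estradiol than with vehicle in 144 clusters, lower in 9 and equal in 27, with a median difference of 10.2 points. With dexamethasone it was higher than with vehicle in 40 and lower in 108, with a median difference of −3.29 points. With the combination it was higher than with vehicle in 128 and lower in 22, a median difference of 6.71 points. Against estradiol alone, the combination was higher in 43, lower in 96 and equal in 41, with a median difference of −0.77 points. Estradiol gave the highest coverage of the 4 lists in 92 clusters and dexamethasone the lowest in 104. The estradiol list also had the largest total peak length and the dexamethasone list the smallest, so these counts are a description. In windows of 5 kb to each side of all estradiol ER summits, coverage was above vehicle at 61.4% with estradiol and below it at 5.96%. These shares were 20.1% and 34.0% with dexamethasone, 52.7% and 12.9% with the combination, and 25.8% and 43.8% for the combination against estradiol.

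For a measure of equal size at every site, H3K27ac coverage was taken within 5 kb to each side of each ER summit. Its median at clustered sites was 33.4% with vehicle, 54.9% with estradiol, 25.1% with dexamethasone alone and 52.7% with both hormones. In the same order it was 10.1%, 26.1%, 4.30% and 24.0% at sites in pairs and 0%, 3.40%, 0% and 2.31% at single sites. The windows of clustered sites overlap each other and, by the rule, can hold neighbouring ER sites. Coverage was higher with estradiol than with vehicle around 588 clustered sites (88.3%), against 61.4% of all estradiol ER sites and 47.8% of single sites, and lower around 6.01%, against 5.96% of all. With dexamethasone it was higher than with vehicle around 27.6%, against 20.1% of all, and lower around 371 (55.7%), against 34.0% of all and 24.7% of single sites. With the combination it was higher than with vehicle around 77.8%, against 52.7% of all, and lower around 14.7%, against 12.9% of all. Against estradiol alone the combination was higher around 29.9%, against 25.8% of all, and lower around 427 (64.1%), against 43.8% of all and 33.8% of single sites. Windows with no peak in either list cannot differ, and windows of equal coverage were more frequent at single sites.

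The H3K27ac peaks that held clustered ER sites were wide. Their median width was 2591 bp with vehicle, 3113 bp with estradiol, 1610.5 bp with dexamethasone alone and 2710 bp with both hormones, against 1401, 1772, 1406.5 and 1671 bp for peaks holding single sites. Medians over all peaks of the lists were 547, 650, 471 and 596 bp. Each peak was counted once, and a wide peak has more room for several ER sites.

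Individual clusters are given below by hg19 coordinates, without gene names or sequence, since no annotation or genome of that build was used here. Fold enrichments of different lists come from libraries of different depth and are set side by side without a comparison. The cluster with the most sites and the highest summed −log10 q was chr3:134045895-134094190, with 9 ER sites over 48296 bp. Its strong sites stood near both ends: chr3:134046464-134046716 had a fold enrichment of 51.4 with estradiol and 49.9 with the combination, and chr3:134093848-134094190 had 45.8 and 37.0. With the combination 7 of the 9 sites were called, and there was 1 GR peak in the dexamethasone list and 4 in the combination list, of which 3 lay on ER sites, including both of these strong sites. The 1 dexamethasone GR peak lay on another site, chr3:134082962-134083224. H3K27ac covered 61.9% of the span with vehicle, 69.6% with estradiol, 45.5% with dexamethasone alone and 64.6% with both hormones.

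The widest cluster, chr17:55952810-56001106, had 9 sites over 48297 bp, of which 6 were called with the combination. Its strongest site, chr17:55977238-55977461, had fold enrichments of 34.0 with estradiol and 33.3 with the combination, and carried a GR peak of fold 17.0 with the combination and none with dexamethasone. The other two ER sites with combination GR, chr17:55967563-55968221 and chr17:55991683-55991915, were also in the strongest class. The only dexamethasone GR peak of the span lay between ER sites and was called with the combination as well (14.6 and 11.4). Coverage by H3K27ac was 54.1% with vehicle, 76.3% with estradiol, 48.0% with dexamethasone alone and 74.5% with both hormones, and 9 of 9 ER sites lay in a vehicle peak.

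The cluster chr11:69042135-69069511 had the most GR of both kinds, 6 peaks with dexamethasone and 7 with the combination, over 9 ER sites of which 8 were called with the combination. Here GR was called with dexamethasone alone, and its strongest peak, at the ER site chr11:69045631-69045846, had a fold enrichment of 29.1 with dexamethasone and 19.1 with the combination. That ER site was in the weakest class of the estradiol list, with a fold of 7.61. At chr11:69044671-69045129, an ER site of fold 22.1, GR was called with the combination only. The local control background was high at chr11:69066018-69066372, where a pileup of 73.2 gave a fold of 4.12. H3K27ac covered 61.7%, 68.4%, 44.3% and 65.5% of the span in the vehicle, estradiol, dexamethasone and combination lists.

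At chr2:11638702-11680159, a cluster of 8 sites over 41458 bp, there was no GR peak with dexamethasone and 6 with the combination, each on an ER site. The strongest ER site of the cluster, chr2:11638702-11639005, had an ER fold of 37.1 with estradiol and 53.2 with the combination and a combination GR fold of 73.1. The last 2 sites at the other end, chr2:11679707-11679937 and chr2:11679994-11680159, met 1 wide combination ER peak, and a GR peak of fold 52.9 lay there. H3K27ac was listed at 0 over this span with vehicle and with dexamethasone, and covered 10.9% with estradiol and 14.0% with the combination, so most of the span was outside H3K27ac peaks in each list. Within this span, GR and H3K27ac peaks were listed only where estradiol was among the hormones given.

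**Figure D5:**
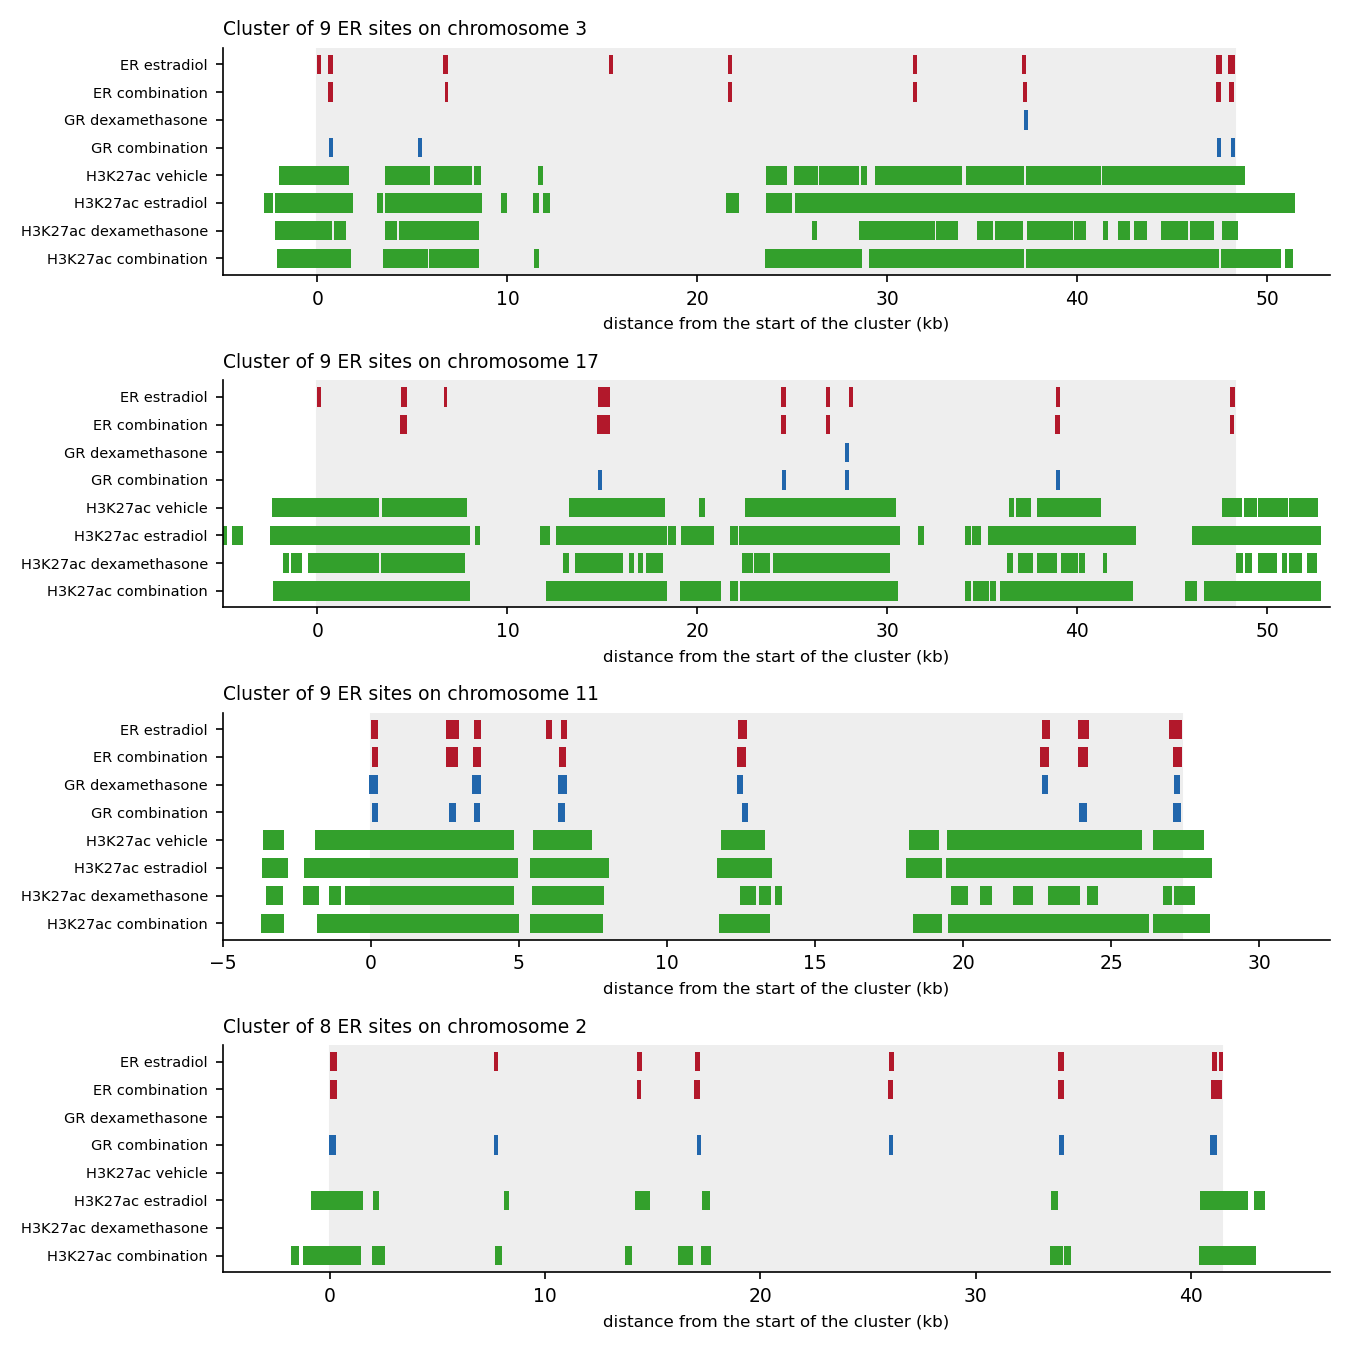
Peaks of all 8 lists (rows) in and within 5 kb of the 4 clusters with the most ER sites, against distance from the start of the cluster (kb), with the span shaded and the narrowest peaks widened so that they show. On chromosome 2 the dexamethasone GR, vehicle H3K27ac and dexamethasone H3K27ac rows are empty, and on chromosome 11 GR peaks stand on ER sites in both GR rows.

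Of the other clusters with the most sites, chr10:80901943-80922833 had 7 sites, 4 of them called with the combination, and 1 GR peak, with the combination. The densest of these was chr16:16240430-16245781, with 7 sites in 5352 bp, of which 2 were called with the combination. GR lay with both treatments on the strongest of them, chr16:16242116-16242362 (ER fold 23.6), and on no other site of the cluster. The cluster chr8:103795052-103820703 went the other way for GR, with 4 peaks with dexamethasone and 2 with the combination over 7 sites. In chr2:129126570-129153822 (6 sites) H3K27ac covered 70.5% with vehicle and 67.3% with estradiol, and in chr5:149877364-149897696 (6 sites) it covered 85.3% and 95.7%. In chr12:6473139-6485559 (6 sites) there were 5 dexamethasone and 4 combination GR peaks. The GR peak of highest −log10 q there had folds of 41.3 with dexamethasone and 42.4 with both hormones, and the ER folds with estradiol reached 31.2.

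The clusters in which every site was called with the combination included chr4:3462830-3469051 (5 sites), chr11:69949932-69967136 (5 sites) and chr9:132318864-132323673 (4 sites). The first had 3 GR peaks with the combination and the second had 5, with none in either with dexamethasone alone. In the second, H3K27ac was listed at 0 with vehicle and with dexamethasone and covered 63.0% of the span with estradiol and 63.7% with the combination. The ER site with the highest fold in the third had 52.3 with estradiol, and GR was called at all 4 of its sites with the combination and at 2 with dexamethasone. H3K27ac covered 96.6% to 100% of the third in every list.

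At the other end, 0 of 3 sites were called with the combination in chr3:50201557-50204986, chr12:113659736-113683815 and chr1:856459-875833, with no GR peak in any of them. The highest fold enrichments of their ER sites with estradiol were 16.7, 12.1 and 15.3. The site of fold 16.7, chr3:50204843-50204986, belonged to the strongest class by −log10 q and was the only one of the 201 clustered sites of that class not called with the combination. They differed in acetylation: H3K27ac covered 97.7% of the first with vehicle and 98.6% with the combination, 5.07% and 3.16% of the second, and 0% of the third with both. The other two clusters with no called site were chr5:90577345-90589716 and chr6:64226132-64227305, named after their values were seen.

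H3K27ac coverage exceeded its vehicle value with estradiol by the most at chr12:283521-290267 (5 sites, from 3.62% to 100%), chr11:76482001-76485104 (3 sites, from 0% to 91.7%) and chr3:177165875-177167748 (3 sites, from 18.2% to 94.0%). With the combination these stood at 98.7%, 81.1% and 97.7%, and with dexamethasone alone at 0%, 0% and 15.0%. The first held no GR peak in either list. Where it was lower with estradiol the differences were small, at most from 83.9% to 74.6% at chr5:123991744-123998176, from 26.9% to 20.2% at chr3:177002362-177018266 and from 85.0% to 79.3% at chr19:28229324-28233199. The first of these held 4 ER sites, 1 of them called with the combination, and 4 GR peaks with dexamethasone against 2 with both hormones.

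With dexamethasone, coverage exceeded its vehicle value by the most at chr2:120470188-120473571 (from 0% to 32.4%), chr21:28477252-28483538 (from 33.1% to 64.5%) and chr18:20424202-20437123 (from 34.9% to 65.0%). The last had 4 ER sites, each called with the combination, with no GR peak with dexamethasone at 1 h and a combination GR peak on each. It was below its vehicle value by the most at chr22:30646803-30649875 (from 89.5% to 15.1%), chr5:139035439-139044122 (from 79.2% to 19.3%) and chr4:3462830-3469051 (from 86.6% to 32.9%). With the combination these last clusters stood at 77.4%, 73.0% and 95.7%. They were chosen for values far below vehicle with dexamethasone, so the choice itself favours values nearer to vehicle in another list.

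Where dexamethasone was added to estradiol, coverage was higher by the most at chr2:120470188-120473571 (from 66.9% to 98.2%), chr12:26427818-26430659 (from 41.6% to 71.0%) and chr12:97950366-97968030 (from 51.4% to 72.6%). It was lower by the most at chr19:28229324-28233199 (from 79.3% to 44.6%), chr11:65778857-65783167 (from 31.6% to 0%) and chr2:241828946-241842248 (from 56.8% to 26.0%). The clusters where it was higher held 1, 0 and 1 GR peaks with dexamethasone and 2, 0 and 3 with the combination. The clusters where it was lower held no GR peak in either list. These are 6 clusters chosen for their coverage, and a relation between GR and acetylation was not tested in them.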

How the data were processed

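The submitters' processing notes name Bowtie 1.1.2, MACS2 2.1.0.20140616 and the build hg19. Each library, per the file headers, was called against a control at a p cutoff of 1.00e-10, with at most 1 tag kept per position. Peak positions, the pileup (a signal), −log10 of the p-value and q-value, and the fold enrichment (a ratio) were deposited by the authors. The control tag totals are equal within the ER lists, so both ER lists share a control, and its kind (input or IgG) is not clear from the labels.

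From these lists, overlaps of at least 1 bp, clusters, spans and coverage were computed in Python 3.11.15 with numpy 2.4.6, pandas 2.3.3 and scipy 1.17.1, using code tested on simulated data. Shares carry exact Clopper-Pearson 95% intervals and differences Newcombe 95% intervals, and no p-value was computed because each group had 1 library. The members, lists and comparisons were chosen with earlier results of these data known. Clusters were named by rule: the 10 with the most ER sites, the 3 widest, and the 3 at each end for sites called with the combination, for GR peaks (most only) and for H3K27ac change from vehicle to estradiol, vehicle to dexamethasone and estradiol to the combination. Alternatives were other joining distances, minimum sizes, overlap rules, the stronger 50% of lists and comparison sets. Counting each cluster once and weighting by vehicle H3K27ac were added after seeing the data. Genes, motifs and sequences were not analysed here.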

Additional observations from a re-analysis of the deposited data

How the results depend on the processing

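Of 128 alternative values, 79 stayed within their interval or within 1.5 times the count, 49 moved and none reversed; all 97 alternative differences between clustered and single sites were above 0. For combination ER, however, the interval reached below 0 at a joining distance of 5000 bp (5.13, −0.34 to 10.3), with clusters of 5 or more (5.23, −2.64 to 12.5) and against all sites outside clusters (3.96, −0.14 to 7.91). The following are values that moved, with differences in percentage points, and the cause was not tested. With intervals within 1 kb, the differences were 17.9 for combination ER, 13.9 and 24.6 for dexamethasone and combination GR, and 40.6, 38.2 and 39.1 for estradiol, dexamethasone and combination H3K27ac. With the stronger 50% of the compared list, dexamethasone and combination GR gave 4.19 and 9.44. With overlap of at least 50% of the ER peak, combination GR gave 11.2 and dexamethasone H3K27ac 28.0. Weighting single sites by vehicle H3K27ac gave 3.96 for dexamethasone GR, and weighting by strength as well gave 4.00 and, for combination GR, 11.6. With clusters of 4 or more, vehicle, estradiol and combination H3K27ac gave 43.5, 51.5 and 49.6. With clusters of 5 or more, they gave 44.3, 54.0 and 52.1, and combination GR 21.7. At a joining distance of 5000 bp, vehicle H3K27ac gave 45.0. At 50000 bp, vehicle, estradiol, dexamethasone and combination H3K27ac gave 33.2, 40.4, 27.3 and 37.3. With peaks within 500 bp counted as 1 site, vehicle, dexamethasone and combination H3K27ac gave 33.5, 29.4 and 39.2. Against all sites outside clusters, the 4 H3K27ac differences were 33.4, 39.1, 28.9 and 37.2 in the order above.

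The number of clusters was 103 at 5000 bp, 305 at 50000 bp, 74 with at least 4 sites, 28 with at least 5, and 47 in the stronger 50% of the ER list. Median span coverage with vehicle, estradiol, dexamethasone and the combination was 86.1%, 100%, 52.1% and 97.5% at 5000 bp, 19.7%, 36.1%, 13.2% and 33.5% at 25000 bp, and 11.3%, 21.8%, 7.26% and 18.3% at 50000 bp, so its level, though not the order of the treatments, depends on the rule.

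No paired analysis was possible because each group holds 1 library and no test between conditions was made. Sites just under the cutoff of a shallower library cannot be told apart from sites without the protein, and intervals over peaks cover counting error only. Other limits are the control shared by the lists of each target, peaks split at short gaps, and copy number and mappability of the loci, which were not analysed here.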
